A study of Mus musculus with 2 samples.

Results

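The 8 genes described here encode transcription factors of the pancreatic progenitor epithelium and of the ducts: the Onecut family (Onecut1, Onecut2 and Onecut3), the forkhead factors Foxa1 and Foxa2, the nuclear receptor Hnf4a, the HMG-box factor Sox9 and the homeodomain factor Prox1. They were chosen by name from a list drawn up with earlier results of these arrays known, and every probe whose RefSeq accession maps to a listed gene was taken. This gave 15 probes for 8 of 16804 named genes on the arrays. All 8 were well above background in both genotypes on both arrays, and 16549 genes in all were so in at least 1 genotype on both arrays.

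The arrays compared RNA of whole pancreas at postnatal day 3 from mice homozygous for a mutant allele of Glis3, written Glis3zf/zf and also Glis3KO in the labels, with RNA from wild-type (WT) pancreas. Glis3 encodes a Krüppel-like zinc finger factor, and the series asked what it does in beta cell development. Each pool held RNA of 2 pups of a genotype, so there is 1 sample per genotype. Each of 2 two-colour arrays received both pools, and the dyes were exchanged between the arrays, so the second array is a technical repeat of the same extracts. The arrays are called the Cy5 array and the Cy3 array after the dye of the mutant pool. No difference has a check across animals and no test was made. In pooled whole tissue, fewer cells of a type and less RNA per cell cannot be told apart.

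In the early pancreas these factors act as a network. Foxa1 and Foxa2 open chromatin for other regulators and act upstream of Pdx1, the master regulator of pancreas formation. Sox9 maintains the multipotent progenitors and later marks the ducts, Onecut1 (also called Hnf6) acts upstream of the endocrine regulator Neurog3 and is needed for normal ducts, and Prox1 is expressed in progenitors and is kept low in acinar cells. Hnf4a is a regulator of metabolism in liver, gut and beta cells. Onecut factors bind DNA through a cut domain together with a homeodomain.

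The sequences just before the start sites of Onecut1, Foxa2 and Hnf4a are shown because Onecut1 was higher in the mutant pool and because 1 of 3 windows of Foxa2 and 1 of 2 windows of Hnf4a, those shown, hold letters of the kind bound by Onecut factors. Each runs over the 250 bases that end before the outermost annotated start, 5′ to 3′ on the gene's strand, from RefSeq on GRCm38.p6, and capitals mark the Onecut-type letters ATTGAT on either strand. The window of Onecut1 is chr9:74861671-74861920 (plus strand), that of Foxa2 chr2:148046970-148047219 (minus strand) and that of Hnf4a chr2:163506607-163506856 (plus strand).
Onecut1: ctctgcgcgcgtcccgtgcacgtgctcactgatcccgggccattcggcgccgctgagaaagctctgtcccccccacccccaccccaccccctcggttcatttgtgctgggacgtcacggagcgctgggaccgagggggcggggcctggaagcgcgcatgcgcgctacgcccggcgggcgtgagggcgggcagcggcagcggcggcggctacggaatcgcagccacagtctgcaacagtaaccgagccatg
Foxa2: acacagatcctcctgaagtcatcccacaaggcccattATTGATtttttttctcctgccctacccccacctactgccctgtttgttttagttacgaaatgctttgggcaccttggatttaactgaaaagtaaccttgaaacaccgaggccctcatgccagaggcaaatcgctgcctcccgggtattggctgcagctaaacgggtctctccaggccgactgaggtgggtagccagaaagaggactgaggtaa
Hnf4a: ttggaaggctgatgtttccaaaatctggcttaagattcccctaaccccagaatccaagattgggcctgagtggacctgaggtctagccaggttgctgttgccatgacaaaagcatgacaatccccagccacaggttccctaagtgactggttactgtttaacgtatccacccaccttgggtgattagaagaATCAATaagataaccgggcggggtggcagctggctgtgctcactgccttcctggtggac

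Searched on both strands, the Onecut-type spellings ATTGAT or ATCGAT were found in 7.40% of 32851 such windows of annotated start sites. ATTGAT lies on the gene's strand of Foxa2, and the base of the match farthest from the start is 213 bases before it. In Hnf4a it lies on the opposite strand, printed as its reverse complement ATCAAT, and the base farthest from the start is 59 bases before it. The window of Onecut1 is rich in G and C, at 71.6%, and holds neither spelling. It also holds neither TGGGGGGT, a Glis-type spelling present in 1.36% of windows, nor the Gli-type TGGGTGGTC, present in 0.225%. The Foxa-type spellings TGTTTAC or TGTTTGC, present in 7.29% of windows, were found in a window of Foxa1 (TGTTTAC on the opposite strand, farthest base 141 bases before the start) and in 1 of 2 windows of Prox1 (TGTTTGC on the gene's strand, farthest base 120 bases before the start). The Hnf4a-type CAAAGTCCA, present in 0.384% of windows, was in none of the 9 windows searched for 5 members. No window of Onecut2, Onecut3 or Sox9 was searched. The spellings do not overlap one another. A match describes letters in a window and was not tested as a binding site.

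Each array gave a ratio for every probe, as log2 of mutant over wild type, so that a positive value is higher in the mutant pool. Rules of size took the place of a test. A gene passed the 2-fold rule when its mean ratio reached 2-fold and both arrays reached 1.5-fold the same way. It passed the 1.5-fold rule when the mean reached 1.5-fold and both arrays 1.2-fold. Of the 8 members, 1 passed the 2-fold rule and 2 passed the 1.5-fold rule, all higher in the mutant pool. Over all 16549 genes, 0.381% passed the 2-fold rule (0.23% higher, 0.151% lower) and 1.05% passed the 1.5-fold rule (0.532% higher, 0.514% lower). The members were picked with such ratios in view, so nothing is read from their share. Their median ratio was 0.13, against 0.0039 over all genes, and 6 of the 8 were above 0 on both arrays, 1 was below 0 on both and 1 changed sign. The share of all genes on the same side of 0 on both arrays was not counted. Nothing is therefore read from such counts, here or for the lists below. The technical SD of a mean ratio, estimated over genes not past the 2-fold rule from how far the arrays differed, was 0.079 log2 over all intensities and lay between 0.066 and 0.082 in the intensity classes of the members. The probe for Glis3 itself had ratios of -0.02 and 0.01. The sources used here do not say where it lies relative to the mutated part, so it does not check the labels.

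**Figure D1:**
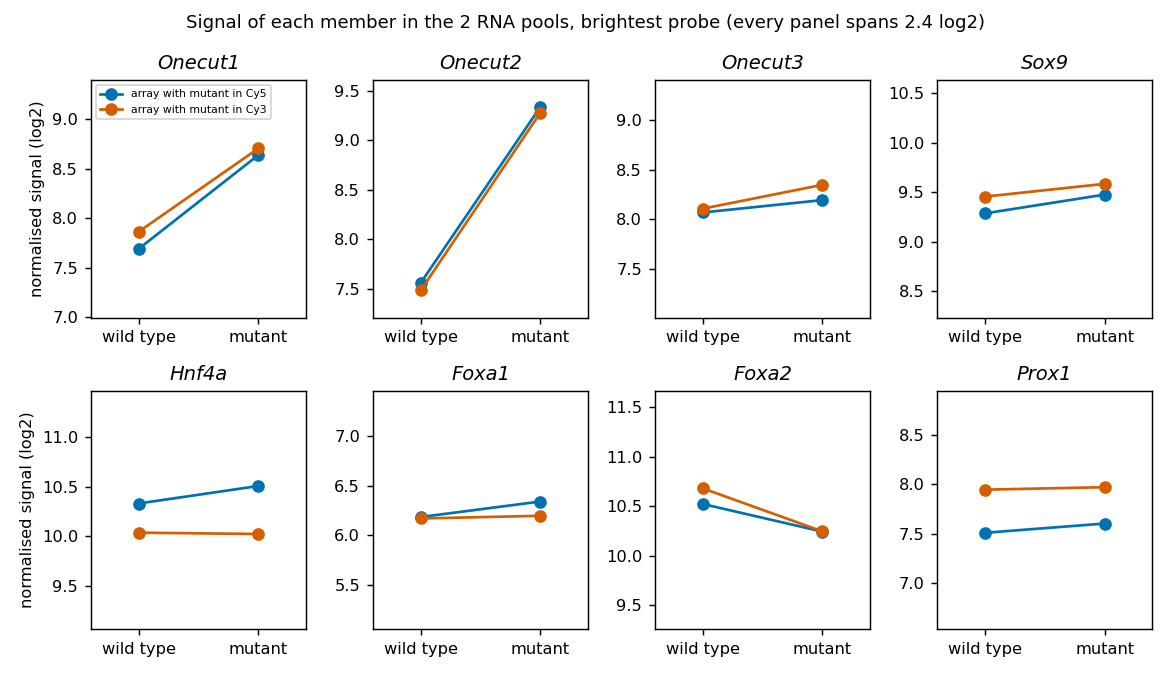
Normalised signal (log2, vertical axis) of the brightest probe of each of the 8 members in the wild-type and the mutant pool (horizontal axis), with 1 line per array. Every panel spans the same range, and the lines of Onecut2 and Onecut1 climb on both arrays, those of Foxa2 descend, and the others are close to level.

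Onecut2, a cut-homeodomain factor that overlaps in sequence and function with Onecut1, had the largest ratio of the members. Its normalised signal was 646.1 for mutant and 188.5 for wild type on the Cy5 array. On the Cy3 array it was 620.4 and 178.9. The mutant values were thus above the wild-type values on both arrays, and the arrays differed far less than the pools. Both arrays read the same pools, so this describes how well the arrays repeat and not a spread between animals. The ratios were 1.78 and 1.79, a mean of 1.79 or 3.45-fold, with a technical SD of 0.073. Of the 16549 genes, 17 had a larger mean ratio.

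A second probe of Onecut2 gave 1.91 and 1.76. It adds little that is independent, because the 2 probes share 40 of their 60 bases. The files place them on chromosome 18 from 64618104 to 64618163 and from 64618084 to 64618143. The sources used here do not name the genome build of the probe coordinates. Raw wild-type signals of the brighter probe were 235.4 and 174.2, above the 95th percentile of negative control spots in the same channels, which was 76.2 and 61.3.

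Onecut1 was also higher in the mutant pool, by less. Its normalised signal was 398.0 for mutant and 206.5 for wild type on the Cy5 array. On the other array it was 417.0 and 232.8. The readings of the mutant pool lay above those of the wild-type pool on both arrays, which are repeat readings of the same pools. The ratios were 0.95 and 0.84, a mean of 0.89 or 1.86-fold, and 44 genes (0.266%) had a larger mean ratio. Onecut1 is read by 1 probe (NM_008262), placed on chromosome 9 from 75028380 to 75028439, so no second probe checks it.

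Whether Onecut1 counts as 2-fold higher depends on how dim signals are treated. The normalised signals here include an added constant of 50, which shrinks the ratios of dim spots. Without the constant the mean ratio of Onecut1 was 1.08, or 2.11-fold, and with the scanner software's own ratios it was 1.10, or 2.15-fold, and it then passed the 2-fold rule. Under the same settings Onecut2 was 4.35-fold and 4.50-fold higher.

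Onecut3, the remaining paralogue, differed little. Its brighter probe had normalised signals of 292.6 for mutant and 268.3 for wild type on the Cy5 array. On the other array these were 325.6 and 275.6. The ratios were 0.13 and 0.24, and the second probe, which does not overlap it, gave 0.11 and -0.10. The probes lie on chromosome 10 from 80645003 to 80645062 and from 80648287 to 80648346. The 3 paralogues thus had unequal ratios. The ratio of Onecut2 exceeded that of Onecut1 by 0.83 and 0.95 on the 2 arrays, and that of Onecut1 exceeded that of Onecut3 by 0.82 and 0.60, where the technical SD of such a difference was 0.10. Probe sequences were not analysed here, so cross-hybridisation between the paralogues was not tested.

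**Figure D2:**
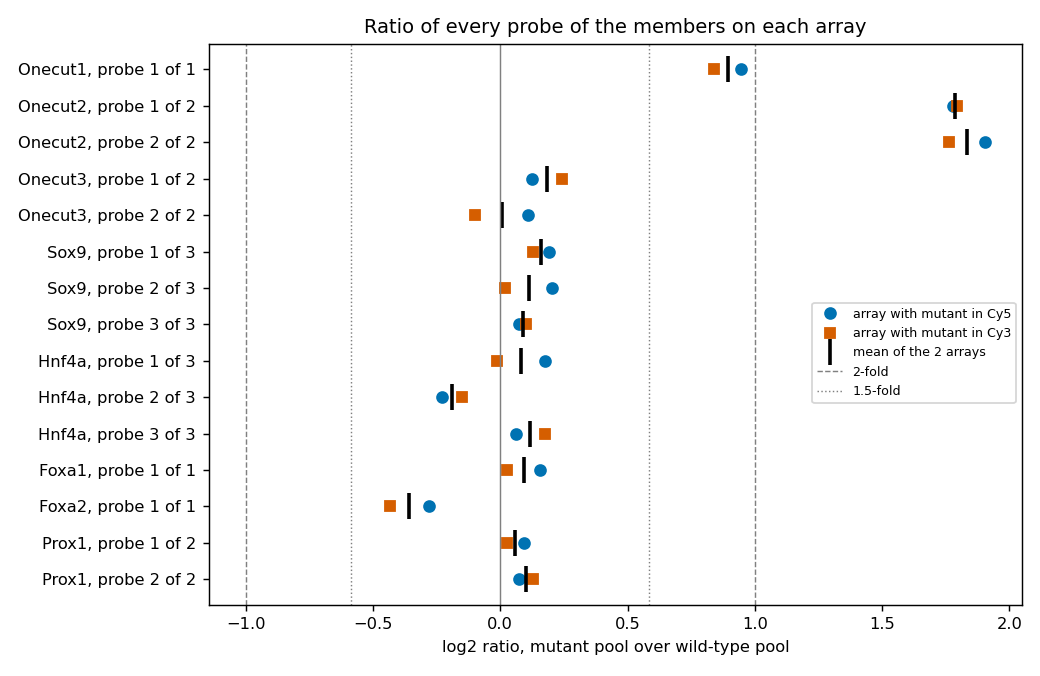
Log2 ratio of mutant over wild type (horizontal axis) for all 15 probes of the members, with a circle for the Cy5 array, a square for the other array and a bar for their mean. The 3 probes of Onecut1 and Onecut2 lie between 0.84 and 1.91, and the other 12 lie between -0.43 and 0.24.

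The forkhead factors had ratios of opposite sign. Foxa2 (NM_010446; chromosome 2, 147499899 to 147499958) was the member with the lowest ratio. Its normalised signal was 1212 for mutant and 1470.4 for wild type on the Cy5 array. On the other array it was 1214 and 1641. Wild type was higher on both arrays, and the ratios were -0.28 and -0.43, a mean of -0.36 or 1.28-fold lower in the mutant pool. This passed neither rule of size, and 336 genes (2.03%) had a lower ratio.

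Foxa1 (NM_008259; chromosome 12, 54272487 to 54272546), its paralogue with overlapping function, had ratios of 0.16 and 0.03. Its normalised signals were 81.1 and 73.4 for mutant and 72.75 and 72.01 for wild type. The raw signals, between 70.0 and 92.6, were close to the 95th percentile of negative controls in their channels, between 60.8 and 76.2, which leaves little room to measure a change. For this dim probe the software's own ratio was 0.43, against 0.09 here. On both arrays the ratio of Foxa2 was below that of Foxa1, by 0.44 and 0.46, but the level of Foxa1 limits that comparison.

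Hnf4a was read by 3 probes that did not give the same sign. The brightest (chromosome 2, 163027299 to 163027358) had normalised signals of 1458 for mutant and 1290 for wild type on the Cy5 array, and 1042 and 1051 on the other. The genotypes changed order between the arrays, with ratios of 0.18 and -0.01. The second (163029308 to 163029367) gave -0.23 and -0.15, and the dimmest (163009536 to 163009595) gave 0.06 and 0.18. The latter 2 were dim, with raw signals between 72.1 and 154.2. No probe of Hnf4a passed either rule, and the means of the 3 probes ran from -0.19 to 0.12.

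Sox9 was slightly above 0 with all 3 of its probes on both arrays. The brightest (chromosome 11, 112608589 to 112608648) had normalised signals of 712.7 for mutant and 624.8 for wild type on the Cy5 array, and 768.3 and 702.7 on the other. Its ratios were 0.19 and 0.13, a mean of 0.16 or 1.12-fold, with a technical SD of 0.078. The second probe (112606788 to 112606847) gave 0.20 and 0.02. The dimmest gave 0.07 and 0.10, and the files give it a span of 853 bp (112604090 to 112604942), more than the 60 bases of the other Sox9 probes.

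Prox1 was close to level. Its brighter probe had normalised signals of 194.4 for mutant and 182.2 for wild type on the Cy5 array, and 250.7 and 246.4 on the other. The 2 arrays differed from each other by more than the genotypes did. The ratios were 0.09 and 0.02, and the second probe (chromosome 1, 189838000 to 189838059) gave 0.07 and 0.13. The brighter probe spans 7289 bp in the files, from 189868331 to 189875619, where the second spans 60 bp.

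Of the 8 members, 5 lay within 0.3 log2 of 0, as did 94.7% of all genes. Onecut2, Onecut1 and Foxa2 were the other 3. The genes whose ratios on the 2 arrays lay nearest to those of Onecut2, by Euclidean distance over the 2 ratios, were St8sia3 (1.84 and 1.75, distance 0.081), Myl2 (1.87 and 1.88, distance 0.13), Gp2 (1.94 and 1.92, distance 0.21), Cox8b (1.68 and 1.52, distance 0.29) and Myh4 (2.01 and 2.01, distance 0.31). Myl2 and Myh4 encode myosin chains of muscle, and Gp2 a protein of acinar zymogen granules. With 2 arrays of the same pools, this likeness describes the size of a ratio and no more.

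**Figure D3:**
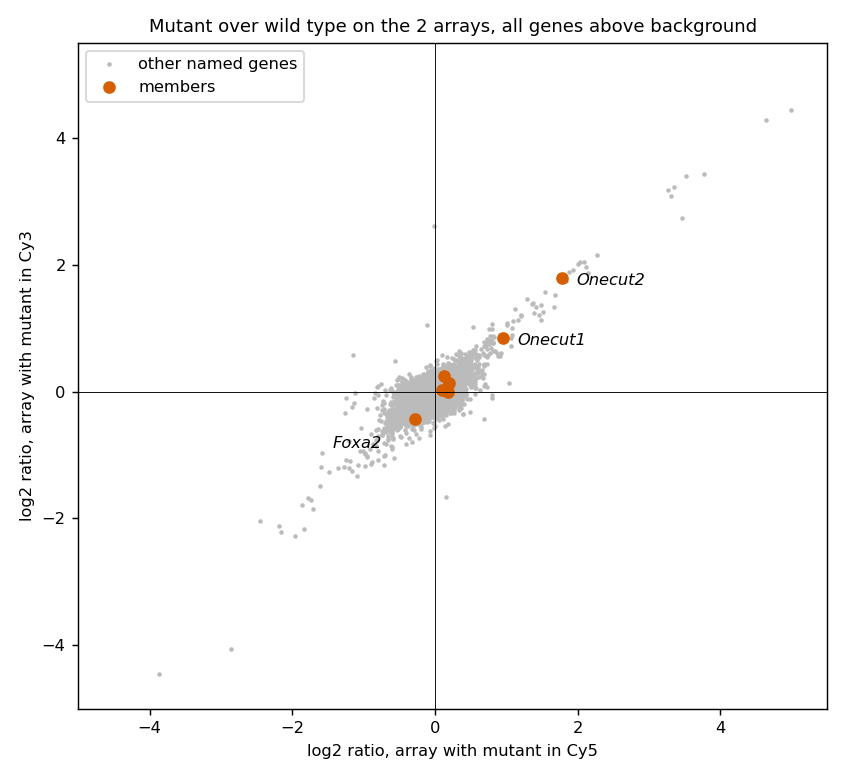
Log2 ratio of mutant over wild type on the Cy5 array (horizontal axis) against that on the Cy3 array (vertical axis), for 16549 genes above background (grey) and the 8 members (orange). Onecut2, at 1.78 and 1.79, and Onecut1, at 0.95 and 0.84, lie on the diagonal outside the main cloud, and Foxa2 lies in the lower part of the cloud.

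Other regulators of pancreatic progenitors had ratios on both sides of 0. Of 23 listed and measured, such as Pdx1, Ptf1a and Gata4, 0 passed either rule, the median was -0.02, and 7 were above 0 and 9 below 0 on both arrays. The largest ratios were those of Hhex, a homeobox factor of foregut organs and delta cells, at -0.77 and -0.36 (its other probe gave a mean of -0.03), and of Nkx6-1, a factor of progenitors and beta cells, at -0.52 and -0.57. At the other end, and named after its values were seen, stood Ptf1a, the acinar and progenitor bHLH factor, at 0.61 and 0.44. Neurog3, named here for its place in the network, had a mean ratio of -0.02.

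Duct genes had ratios near 0. Of 19 measured, 0 passed either rule, the median was 0.05, and 10 were above 0 and 5 below 0 on both arrays. Tff2, a secreted trefoil peptide, had 0.42 and 0.59, and Aqp1, a water channel, -0.49 and -0.27. Of 9 genes of the primary cilium of duct cells, 0 passed and the median was -0.02, with 3 above and 5 below 0 on both arrays. The largest ratios were those of Pkhd1, the fibrocystin gene, at -0.33 and -0.38 (-0.07 by its other probe) and Bicc1, an RNA-binding protein of cystic disease, at -0.36 and -0.15.

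Genes described as targets of the members were taken as lists from general knowledge. Of 12 measured targets of Onecut1, 0 passed either rule and the median was -0.03, 3 being above and 4 below 0 on both arrays. The largest ratios were that of Pkhd1, given above, and that of Spp1, the osteopontin gene of ducts, at 0.48 and 0.13. Of 13 targets of Hnf4a, 0 passed and the median was 0.02, with a range from -0.17 (Slc2a2, a glucose transporter, with -0.76 by its other probe) to 0.14 (Otc, a urea cycle enzyme). Of 10 targets of Sox9, 0 passed and the median was 0.04, with Spp1 and Krt19, a duct keratin, highest at 0.30 and 0.28. These lists share genes, so their medians are not separate measurements. Several genes of the Onecut1 and Hnf4a lists, such as Ttr, Cyp7a1, Apoa1 and Apoa2, are also among the hepatocyte markers below. Some were dim, with raw signals from 70.2 to 96.5 for Igfbp1 and from 79.1 to 115.0 for Apoa2. The 95th percentile of negative controls was between 60.8 and 76.2, which leaves little room to measure a change in such genes. Whether targets responded to their factors was not tested.

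Targets of Foxa1 or Foxa2 included 2 that were past the 2-fold rule, both lower. Of 12 measured, the median was -0.07, 4 were above and 6 below 0 on both arrays. Abcc8, the sulfonylurea receptor of the beta cell potassium channel, had -1.72 and -1.85, although its other probe gave a mean of 0.25. Gcg, the glucagon gene, had -1.16 and -1.25. Both are genes of islet cells and also stand in the list of islet markers described next.

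**Figure D4:**
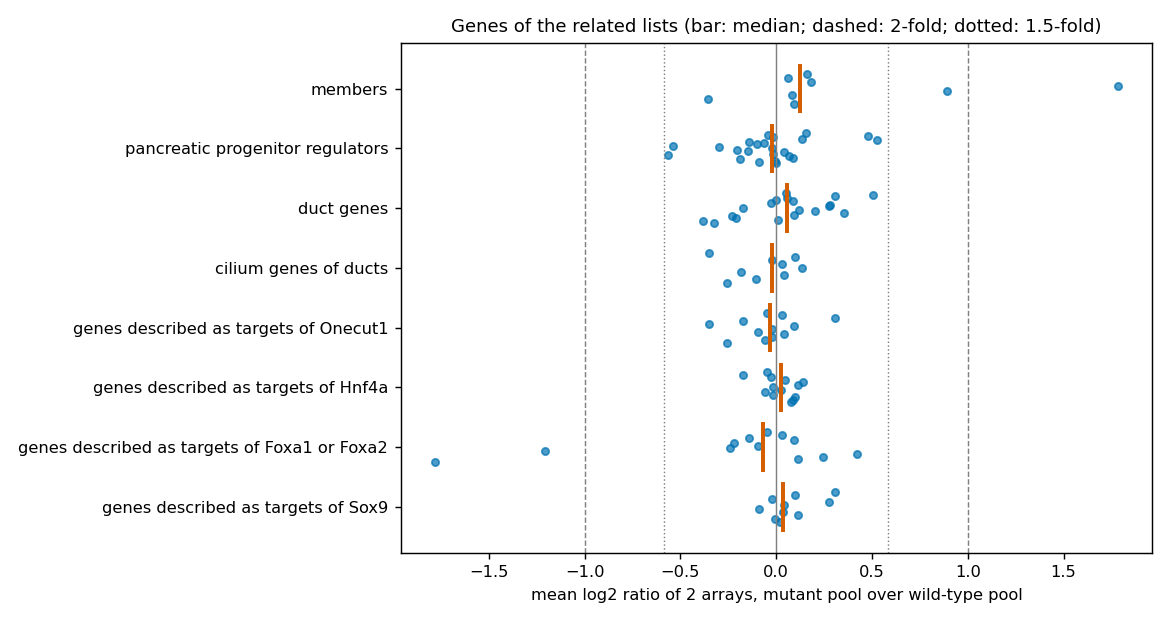
Mean log2 ratio of mutant over wild type (horizontal axis) for each measured gene of the members and of the 7 related lists, with 1 point per gene and a bar at each median. The medians of the 7 related lists lie between -0.07 and 0.05, and the 2 points beyond 2-fold on the left are Abcc8 and Gcg.

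Markers of other cell types differed between the pools, and their part in the ratios of the members was not tested. Of 14 islet endocrine markers, all were well above background and all were below 0 on both arrays, and 10 passed the 2-fold rule. Their summed normalised signal was between 53904 and 62469 for mutant and between 224925 and 229490 for wild type. The insulin genes Ins1 and Ins2 within it had saturated spots. Of 14 skeletal muscle markers, 10 passed the 2-fold rule, all higher, and the others passed neither rule. On both arrays 11 were above 0 and 1 was below 0, and the lowest mean ratio was -0.21. The sum over all 14 was between 30669.5 and 31536 for mutant and between 10322 and 10355 for wild type. No marker of either list was at background in both genotypes. By the same measure, 16549 of the 16804 named genes were well above background in at least 1 genotype on both arrays.

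The lists of tissues in which several members are also expressed differed less between the pools. Of 13 hepatocyte markers, 0 passed either rule, with a median of 0.05 and a sum between 6479.7 and 6592 for mutant and between 6329 and 6364 for wild type. Alb, the albumin gene, had 0.61 and 0.24, and Ahsg, a secreted liver glycoprotein, 0.20 and 0.15. Neuron and Schwann cell markers, relevant because Onecut factors are expressed in neurons, had a median of -0.13 over 11 genes, of which 0 passed, with Elavl4, a neuronal RNA-binding protein, at -0.54 on both arrays (a mean of -0.15 by its other probe) and S100b at -0.44 and -0.40, and a sum between 3058 and 3113 for mutant and between 3517 and 3582 for wild type. Lymphatic endothelium, which depends on Prox1, had a median of 0.04 over 6 genes, of which Lyve1 passed the 1.5-fold rule at -0.64 and -0.64. Cartilage, which depends on Sox9, had a median of 0.03 over 8 genes, with Comp at 0.17 on both arrays and Sox5 at -0.12 and -0.14.

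In acinar cells, where Prox1 is kept low, 10 of 18 markers were saturated in both genotypes. The median of the other 8 was -0.14, and Gp2, a zymogen granule protein, was higher by a mean of 1.93 and Ctrl, a protease, lower with a mean of -1.11, both past the 2-fold rule, and Rbpjl, an acinar transcription factor, was past the 1.5-fold rule at -0.85. Medians of the remaining lists were -0.02 over 6 genes of intestine, 0.05 over 6 of stomach, -0.18 over 9 of blood endothelium and -0.08 over 5 of erythroid cells, with 0 past either rule. The largest mean ratios in these lists were -0.18 (Vil1) and 0.16 (Fabp2, with -0.16 by its other probe) for intestine, and 0.14 (Tff1) and 0.10 (Gkn1) for stomach. They were -0.55 (Flt1) and -0.42 (Egfl7) for blood endothelium, and -0.46 (Hba-a1) and -0.26 (Alas2) for erythroid cells. The medians were 0.18 over 10 genes of mesenchyme (Des, 0.64), 0.30 over 9 of myeloid cells (Lyz1, 0.85, and Lyz2, 0.86, with 0.48 by its other probe, which is short of the rule) and 0.15 over 8 of lymphocytes (Cd52, 0.64), where the genes in brackets passed the 1.5-fold rule.

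**Figure D5:**
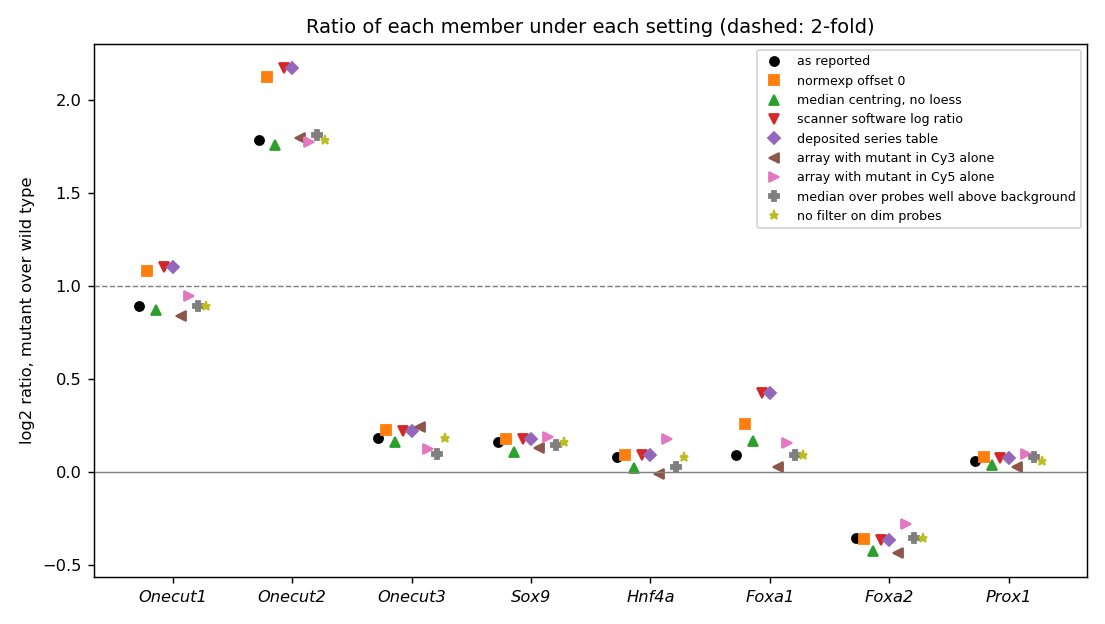
Log2 ratio of mutant over wild type (vertical axis) of each member (horizontal axis) as reported and under 8 other settings, 1 symbol per setting. Onecut2 stays between 1.76 and 2.17, Onecut1 moves between 0.84 and 1.10 across the 2-fold line, and Foxa2 stays between -0.43 and -0.28.

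The direction held under all 8 other settings for 7 members, and Hnf4a changed sign when the Cy3 array was taken alone, at -0.01. Not every setting could change a value. Keeping genes not well above background left all members as reported, and the median over probes left genes with 1 probe unchanged. The deposited table holds the scanner software's ratios, and an array alone gives ratios already reported above.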

How the data were processed

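Per the labels, cRNA was made from 500 ng of RNA of each pool with a Cy3 or Cy5 label, and 750 ng of each was placed on an Agilent whole mouse array for 17 hours. The deposited scanner files hold linear spot intensity and background intensity per channel and, per the file headers, a log10 ratio from software-processed signals. Agilent Feature Extraction 7.5 and Rosetta Resolver 6.0 are named in the labels, module version 8.5.1.1 in the file headers. The deposited series table holds log2 ratios, whose scale and direction (mutant over wild type) were settled by comparison with the scanner files: 99.99% and 99.98% of probes agreed within 0.002, and the column medians were 0.

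Mean signals were background-corrected by normexp (offset 50) and loess-normalised within arrays with limma 3.58.1 in R 4.3.3, with control spots at weight 0. These steps were also run on simulated data with changes set only in brighter probes, so changes in dim probes were not checked. Spots flagged as outliers, 15 and 53, were left out. The sign of 1 array was flipped so that both read mutant over wild type, and the ratios were averaged over the dye swap, which counts as 1 sample per genotype. Normalised signals come from Aquantile scaling between arrays and include the offset. Probes were named through RefSeq (GRCm38.p6) by accession or symbol, leaving 17702 unnamed. The brightest probe without saturation stands for each gene. The share of spots well above background was 94.0% to 96.8%. With 1 sample per genotype, the spread between animals cannot be estimated, and the number of arrays limits only the technical precision. Genes saturated in both genotypes enter the summed signals of a list but not its median. Members and gene lists were chosen with earlier results of these data known. From each list the genes past a rule, otherwise the 2 largest ratios, were named, and islet and muscle genes are given as counts.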

Additional observations from a re-analysis of the deposited data

How the results depend on the processing

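Across 8 alternatives, not all of which could change their ratios, Onecut2 and Onecut1 stayed higher in the mutant pool. With a normexp offset of 0 their ratios were 2.12 and 1.08, with the scanner software's ratios 2.17 and 1.10 and with the deposited table, which holds those ratios, also 2.17 and 1.10. Under these 3 settings 2 members passed the 2-fold rule instead of 1. Genes lower by the 2-fold rule then numbered 42 with the offset of 0 and 44 with the other 2 settings, against 25, and all 63 genes past that rule were again among those called. With the software's ratios or the deposited table, 142 genes were lower by the 1.5-fold rule, against 85. An array alone gave between 87 and 138 such genes, without a condition on the other array. The median over the members was 0.20 with the offset of 0, against 0.13, and between 0.08 and 0.17 with an array alone. The offset compresses the ratios of dim spots by its construction. Beyond that the cause was not tested. The ratio of Onecut3 was 0.09 with the median over its probes, and that of Foxa1 lay between 0.03 and 0.43. No paired analysis was possible because each genotype is 1 pool. Depth of signal limits Foxa1 and the dimmer Hnf4a probes most.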

Other observations

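The gene next to Onecut2 in the order of detected genes on chromosome 18, St8sia3, which encodes a sialyltransferase of glycoproteins and gangliosides, had nearly the same ratios, 1.84 and 1.75. Its second probe gave 2.18 and 2.01, and its dimmest probe gave 0.37 on both arrays. The detected gene on the other side of St8sia3, Txnl1, had -0.45 and -0.19 (a mean of 0.01 by its other probe), and the gene on the other side of Onecut2, Fech, had -0.47 and -0.17 (0.02 by its other probe). The next ones outward, Apcdd1, Nars and Atp8b1, had mean ratios between -0.09 and 0.06. These neighbours were looked up after the ratio of Onecut2 was known.

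The 3 detected genes on either side of Onecut1 had mean ratios between -0.32 (Rab27a) and 0.08 (Fam214a), and those around Onecut3 between -0.31 (Uqcr11) and 0.22 (Mbd3). None of these 12 genes passed either rule of size. No test was made of a shared cause.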
